A study of Danio rerio with 12 samples.

Results

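The genes examined were those of rod and cone phototransduction, of the visual cycle that restores the chromophore, and of the transcription factors and disc rim proteins that belong to the same cells. They were given as 52 gene symbols with the visual opsins left out, and their members were the rows of the expression tables whose Ensembl identifier carries such a symbol. Of the 52 symbols 50 could be assigned, to 54 of the 32520 identifiers in the tables. The symbols gngt1 and pde6a, for the gamma subunit of rod transducin and the alpha subunit of the rod phosphodiesterase, were matched to no identifier. By the class they were given, 14 members were rod genes, 15 were cone genes, 19 were shared by both cell types and 6 belonged to the visual cycle.

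Whole zebrafish larvae were sequenced at 120 hours post fertilization, in 6 samples of wild type (elmo3+/+) and 6 samples of homozygous knockout (elmo3-/-), each a pool of 30 larvae. The knockout was a frameshift mutation made with CRISPR/Cas9, and both genotypes carried the Tg(fli1:EGFP) reporter, which marks endothelial cells and was the background of the line. The study names littermates as controls for knockout animals in its methods for adult fish. Its larvae were held with or without PTU, an inhibitor of pigmentation. Neither point is stated in its methods for the larvae that were sequenced. The comparison asks whether the loss of Elmo3, an adaptor that regulates the GTPase Rac1 together with DOCK proteins, alters the larval transcriptome.

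In a photoreceptor, light changes the chromophore of the opsin, the opsin activates the G protein transducin, and transducin relieves the inhibition of a phosphodiesterase that hydrolyses cyclic GMP. Channels held open by cyclic GMP then close. The signal is ended by opsin kinases, arrestins and a GTPase activating protein, while guanylyl cyclases and their calcium sensing activators restore cyclic GMP. Rods and cones use paralogous genes at nearly every step, and the larval zebrafish retina is known for vision driven mainly by cones. Several of these genes are also used by pineal photoreceptors.

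The names of the members carry a limit that touches every value. For 20 identifiers the name table gave the zebrafish symbol itself, 1 identifier (guca1aa) was reached through a synonym, 5 carried the human-style symbol of a single gene and 6 carried such a symbol on more than 1 identifier. The remaining 22 bear a family name in capitals, such as ARR3 or GRK7, where the letter of the zebrafish copy is not given. They are therefore named here by family and identifier. A further copy outside the 52 symbols may be among them, since RPE65 stands on 3 identifiers where the list holds 2 symbols. PDE6B and CNGA1 each stand on 2 identifiers where the list holds 1 symbol. Whether a PDE6B identifier is the unmatched pde6a cannot be told from the names.

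Total counts per sample lay between 16851426 and 17577126, and members held 0.639% to 1.04% of them. No member was at 0 in any sample. elmo3 itself was low, at 3.98 ± 0.99 counts-per-million units (CPM) in elmo3+/+ and 4.07 ± 0.97 CPM in elmo3-/- (mean ± SD, n = 6 each, edgeR adjusted p = 0.967). The study likewise reported no change of elmo3 RNA in elmo3-/- larvae by RT-qPCR, so that elmo3 offers no check of the labels. Nothing in the labels states that the pools of a genotype came from separate clutches, and p-values measure only the spread between these pools.

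Levels of the members covered more than 3 orders on a log10 axis of transcripts-per-million values (TPM). TPM are reads divided by transcript length, so that comparisons between genes rest on the lengths assigned to them. GNGT2 ENSDARG00000103543, first by TPM, had a mean of 467 CPM in elmo3+/+, where length is not taken into account, beside 1312 CPM for gnat2. The median of the members' mean levels was 38.7 TPM, beside 6.47 TPM over all genes tested. Of the 54 members 17 exceeded 100 TPM and 17 stayed below 10 TPM. The first 4 in the order of levels, all of them cone genes, held 56.8% of the summed TPM of the members. Cone members had a median level of 85 TPM and rod members one of 14.7 TPM. The classes differ in make-up. The rod class holds the transcription factors nr2e3 and nrl and lacks gngt1, while the cone class holds GNGT2 and no transcription factor.

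**Figure D1:**
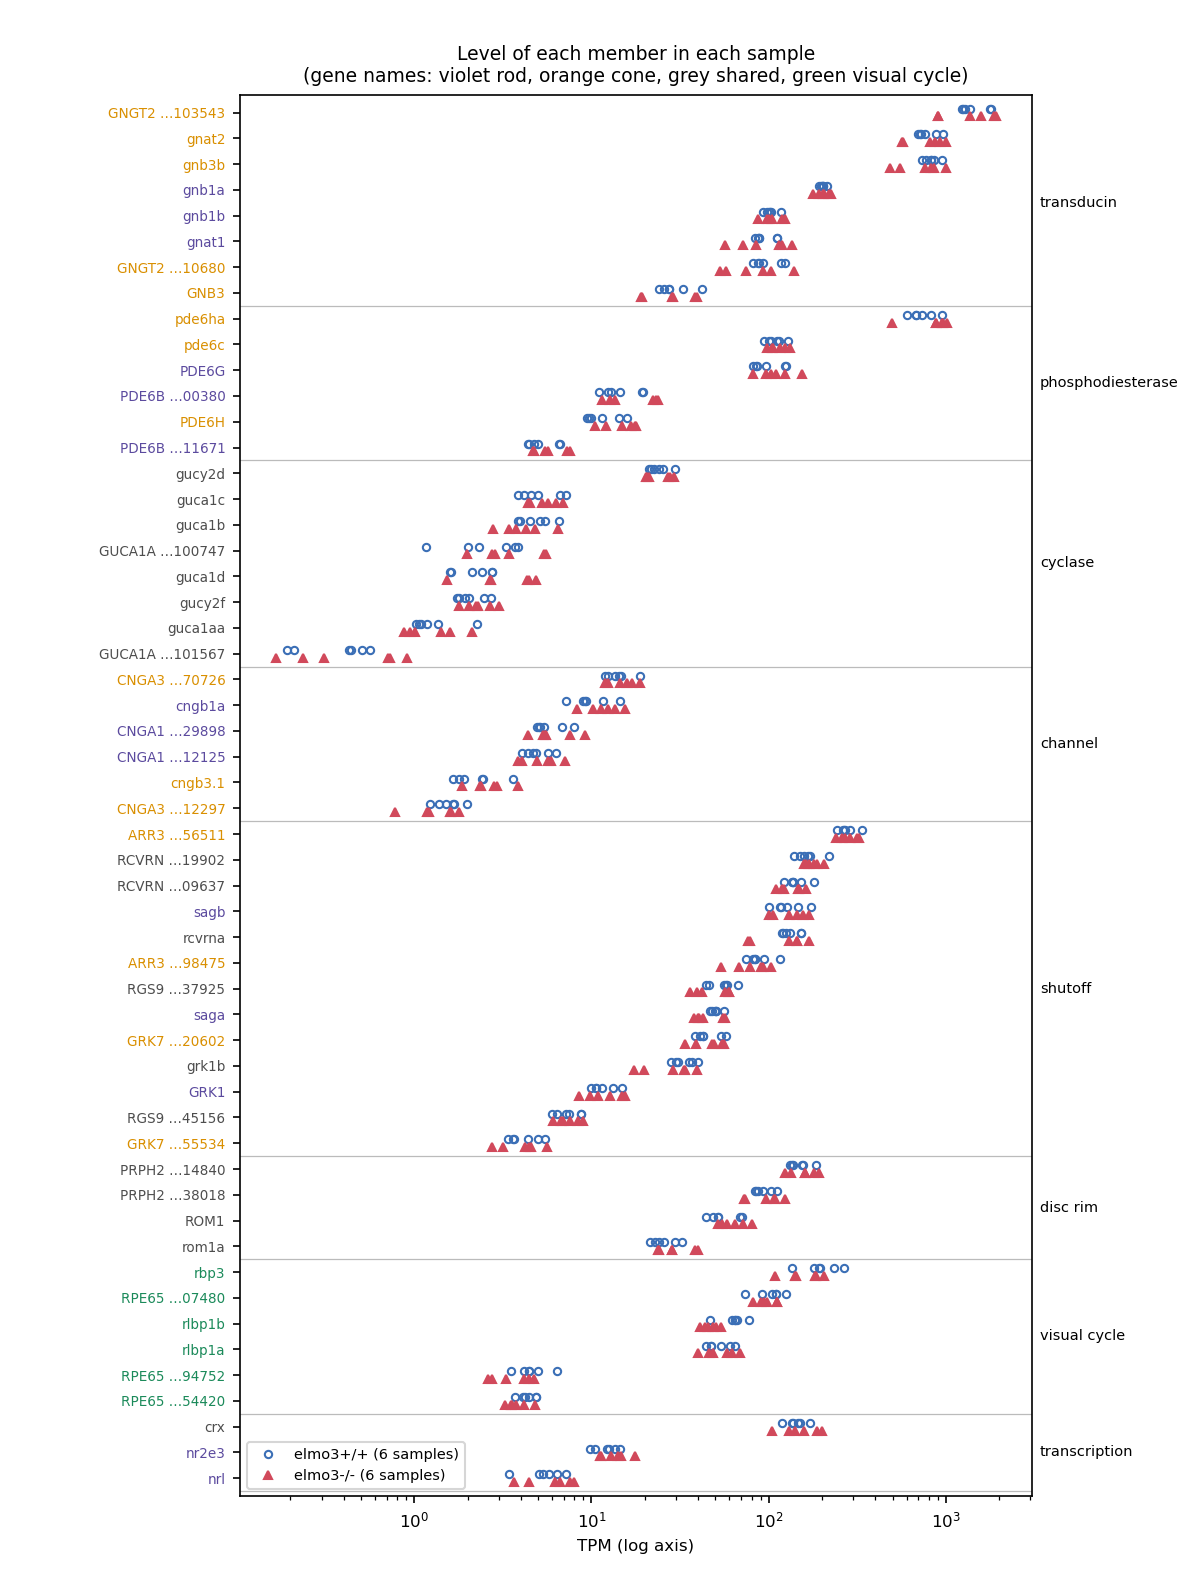
Level of each of the 54 members in TPM on a log axis, by step of the pathway. Circles are the 6 elmo3+/+ samples and triangles the 6 elmo3-/- samples, and the ranges of both genotypes overlap at every member.

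Transducin, the G protein, supplied the highest levels. The gamma subunit GNGT2 ENSDARG00000103543 had a lowest, median and highest level of 1232, 1324 and 1794 TPM in elmo3+/+ and of 899, 1477 and 1918 TPM in elmo3-/-. Next in this complex came gnat2 (ENSDARG00000042529), the cone alpha subunit that carries the signal, with 693, 744 and 957 TPM in elmo3+/+ and 566, 844 and 1005 TPM in elmo3-/-. The beta subunit gnb3b stood at 730, 820 and 946 TPM in elmo3+/+ and at 487, 793 and 997 TPM in elmo3-/-. For all 3 the knockout samples reached both lower and higher than the wild type ones. gnb3b and gnat2 kept no fixed order, as gnat2 was higher in 8 of 12 samples, and pde6ha was above gnat2 in 4 of 12.

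The rod alpha subunit gnat1 stood far below gnat2, with 83.9, 88.0 and 111 TPM in elmo3+/+ and 57.0, 99.5 and 136 TPM in elmo3-/-. The second copies of cone subunits were also low. GNGT2 ENSDARG00000010680 lay between 81.6 and 123 TPM in elmo3+/+ (median 90.8) and between 52.9 and 139 TPM in elmo3-/- (median 84.0). GNB3 lay between 24.1 and 41.9 TPM (median 27.5) and between 19.0 and 39.4 TPM (median 28.6). The higher copy exceeded the lower one in all 12 samples, by a median of 15.4 times for GNGT2 and of 27.6 times for gnb3b against GNB3. The beta 1 subunits gnb1a and gnb1b, which are the rod partners in mammals but serve many tissues, were the steadiest. gnb1a had 192, 201 and 215 TPM in elmo3+/+ and 177, 205 and 226 TPM in elmo3-/-, and gnb1b had 92.6, 101 and 118 TPM and 86.5, 102 and 124 TPM.

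In the phosphodiesterase the order of inhibitory and catalytic subunits differed between copies. The cone inhibitory subunit pde6ha had 607, 704 and 955 TPM in elmo3+/+ and 497, 917 and 1010 TPM in elmo3-/-, while the cone catalytic subunit pde6c had 93.6, 107 and 129 TPM and 97.5, 111 and 132 TPM. The rod inhibitory subunit PDE6G had 81.6, 91.1 and 125 TPM in elmo3+/+ and 81.8, 106 and 154 TPM in elmo3-/-. The rod catalytic identifiers, both named PDE6B, were below PDE6G. PDE6B ENSDARG00000000380 lay at 11, 13.7 and 19.5 TPM in elmo3+/+ and at 11.4, 17.9 and 23.7 TPM in elmo3-/-, and PDE6B ENSDARG00000011671 at 4.37, 4.89 and 6.65 TPM and at 4.67, 5.59 and 7.55 TPM. PDE6H, a further cone inhibitory subunit with a mean of 13.4 TPM, was a median of 61.4 times below pde6ha and also below pde6c.

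Cyclic GMP is made by guanylyl cyclases under the control of activating proteins. Of the cyclases gucy2d (mean 24.2 TPM) was above gucy2f (2.22 TPM) in all 12 samples. The 6 identifiers of activating proteins were among the scarcer members, with means from 0.451 TPM for GUCA1A ENSDARG00000101567 to 5.37 TPM for guca1c.

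Channel subunits, which cyclic GMP holds open, were low in both cell types. Among the alpha subunits CNGA3 ENSDARG00000070726 of cones had 11.9, 14 and 18.9 TPM in elmo3+/+ and 11.9, 15.2 and 18.7 TPM in elmo3-/-, and its copy CNGA3 ENSDARG00000012297 had 1.23, 1.58 and 1.99 TPM and 0.776, 1.40 and 1.78 TPM. The rod alpha subunits CNGA1 ENSDARG00000029898 and CNGA1 ENSDARG00000012125 were close to each other, with 4.91, 5.28 and 8.01 TPM and 4.04, 4.77 and 6.27 TPM in elmo3+/+. In elmo3-/- they had 4.39, 5.51 and 9.22 TPM and 3.86, 5.28 and 7.13 TPM. Of the beta subunits cngb1a of rods had 7.21, 9.25 and 14.5 TPM in elmo3+/+ and 8.28, 11.9 and 15.4 TPM in elmo3-/-, while cngb3.1 of cones had 1.65, 2.16 and 3.62 TPM and 1.86, 2.60 and 3.86 TPM.

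The step that ends the signal held both abundant and scarce members. The cone arrestin ARR3 ENSDARG00000056511, which caps the phosphorylated opsin, had 244, 267 and 335 TPM in elmo3+/+ and 240, 278 and 323 TPM in elmo3-/-, and ARR3 ENSDARG00000098475 had 74.2, 84.1 and 115 TPM and 53.5, 84.2 and 104 TPM. The rod arrestin sagb had 100.03, 122 and 173 TPM in elmo3+/+ and 101, 137 and 168 TPM in elmo3-/-. These arrestins were thus above the kinases that mark the opsin for them. The cone kinase GRK7 ENSDARG00000020602 had 38.3, 42.6 and 57.7 TPM in elmo3+/+ and 33.6, 48.4 and 55.7 TPM in elmo3-/-, and GRK7 ENSDARG00000055534 had 3.37, 4.02 and 5.45 TPM and 2.76, 4.34 and 5.64 TPM. The rod opsin kinase GRK1 had 9.96, 11.1 and 14.8 TPM and 8.51, 11.8 and 15.4 TPM, a median of 2.65 times below its paralogue grk1b. Recoverins, calcium sensors that inhibit these kinases, were even among themselves, at means of 172, 139 and 129 TPM for RCVRN ENSDARG00000019902, RCVRN ENSDARG00000009637 and rcvrna. RCVRN ENSDARG00000019902 ranged from 139 to 220 TPM (median 162) in elmo3+/+ and from 158 to 206 TPM (median 174) in elmo3-/-. RGS9, which speeds the shutdown of transducin, averaged 51.9 TPM at ENSDARG00000037925 and 7.42 TPM at ENSDARG00000045156.

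At the disc rim, where tetraspanins shape the membrane stacks, PRPH2 ENSDARG00000014840 had 131, 145 and 184 TPM in elmo3+/+ and 124, 161 and 191 TPM in elmo3-/-. PRPH2 ENSDARG00000038018, ROM1 and rom1a followed with means of 95.5, 59.7 and 28.3 TPM. Of the transcription factors crx, which activates genes of both cell types, had 118, 142 and 172 TPM and 105, 150 and 200 TPM. The rod factors nr2e3 and nrl stood at means of 12.9 and 5.80 TPM.

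The visual cycle returns retinal to its light sensitive form in the pigment epithelium and in Müller glia. rbp3, the retinoid carrier between the cells, had 136, 195 and 267 TPM in elmo3+/+ and 109, 162 and 205 TPM in elmo3-/-. The isomerase RPE65 was almost wholly read at ENSDARG00000007480 (mean 100.4 TPM), a median of 22.2 times above the next of its 3 identifiers. The retinaldehyde carriers rlbp1b and rlbp1a, known in zebrafish from Müller glia and from the pigment epithelium, were near each other, and rlbp1b was the higher in 8 of 12 samples.

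Rod and cone levels were then set against each other within each sample. In elmo3+/+ the ratio of a rod gene to its cone counterpart was tested for 16 pairs of identifiers by a two-sided exact sign-flip permutation test over 6 samples. All 16 pairs had p = 0.0312 in this exact test (adjusted 0.0312 over the 16 pairs), the smallest value that 6 samples allow. The cone gene was higher in 10 pairs and the rod gene in 6, in every one of the 6 samples. gnat1 to gnat2 gave a log2 ratio of -3.06 ± 0.06, PDE6B ENSDARG00000000380 to pde6c one of -2.88 ± 0.22 and PDE6G to pde6ha one of -2.91 ± 0.13 (mean ± SD, n = 6). GRK1 to GRK7 ENSDARG00000020602 gave -1.95 ± 0.08 and sagb to ARR3 ENSDARG00000056511 gave -1.11 ± 0.18. In the 6 pairs with more of the rod gene, 5 had the scarcer cone copy as partner. PDE6G against PDE6H, for example, had a log2 ratio of 3.07 ± 0.05, and the smallest of these ratios was 0.54 ± 0.14 for sagb against ARR3 ENSDARG00000098475. The remaining pair was cngb1a to cngb3.1, at 2.11 ± 0.21. These ratios depend on the transcript lengths assigned to both genes. By CPM, where length is not taken into account, PDE6G stayed below pde6ha, with means of 127 and 263 in elmo3+/+. The order of sagb and ARR3 ENSDARG00000098475 was turned, with means of 93.9 and 118 CPM.

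When rod and cone members of a step were summed, the cone total was higher at 7 of 8 steps in all 12 samples. In elmo3+/+ the median ratio of the cone to the rod total was 8.37 for the transducin alpha subunit, 7.71 for the inhibitory and 5.64 for the catalytic subunits of the phosphodiesterase, and 4.29 for the opsin kinases. It fell to 2.76 for the beta subunits, 2.02 for the arrestins and 1.52 for the channel alpha subunits. At the channel beta subunit the ratio was 0.228. That order rested on cngb3.1 being the only cone beta subunit among the members. With cngb3.2, a second cone copy outside the 52 symbols, added to the cone total after the values were seen, the ratio over 12 samples was between 2.0 and 3.01 (median 2.33). When cngb1b, a paralogue of cngb1a, was added to the rod total as well, it was between 1.12 and 1.52 (median 1.25). No identifier carries the symbol pde6a, and PDE6B stands on 2 identifiers where the list holds only pde6b. Whether the catalytic rod total lacks pde6a can therefore not be told. The rod total of the beta subunits holds genes that other tissues express. The opsin kinase totals leave out grk1b, a paralogue of GRK1 that was classed as shared. Its mean was 31.2 TPM, beside 11.9 TPM for GRK1 and 46.3 TPM for GRK7 ENSDARG00000020602.

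**Figure D2:**
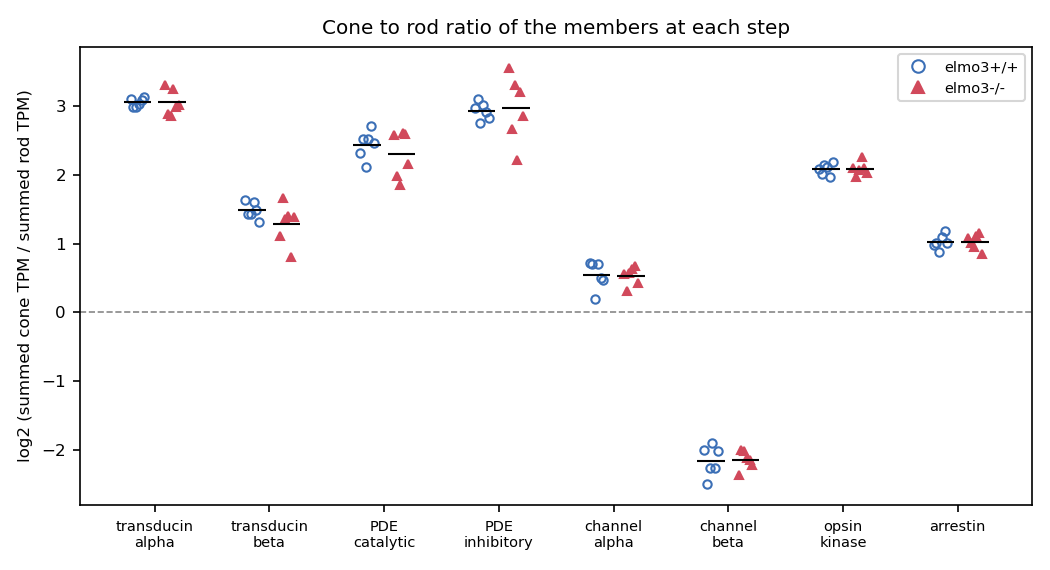
Log2 ratio of the summed TPM of cone members to that of rod members at each of 8 steps, with 1 point per sample and a line at the mean of each genotype (n = 6); PDE is phosphodiesterase. Only the channel beta subunit lies below 0, and points of both genotypes overlap at every step.

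No ratio passed the test between genotypes. Over the 16 pairs the difference of the mean log2 ratio, elmo3-/- minus elmo3+/+, ranged from -0.19 to 0.30 (two-sided exact permutation test over all divisions of the 12 samples, smallest p = 0.0238, smallest adjusted p = 0.26). For gnat1 to gnat2 the mean was -3.06 in both genotypes, with an SD of 0.19 in elmo3-/-. Both pairs with an unadjusted p under 0.05 were arrestins: saga to ARR3 ENSDARG00000056511 went from -2.46 ± 0.10 to -2.64 ± 0.13 (p = 0.0238, adjusted p = 0.26, exact permutation test), and sagb to ARR3 ENSDARG00000098475 from 0.54 ± 0.14 to 0.73 ± 0.13 (p = 0.0325, adjusted p = 0.26, exact permutation test).

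The genotype comparison of single genes gave no call among the members. All 54 passed the filter on low counts, and none had an adjusted p under 0.05 in edgeR's quasi-likelihood test, where 21 of 21127 genes did (0.0994%). At an unadjusted p under 0.05 there were 4 members (7.41%), against 9.52% of all genes tested, with 3 higher in elmo3-/- (4.58% of all genes) and 1 lower (4.95% of all genes). DESeq2 also called 0 members and had 4 at an unadjusted p under 0.05, where the share of all genes in that fit is not given. CPM ranges of the genotypes overlapped for all 54 members, whereas 0.431% of all genes tested had ranges that did not. In whole larvae fewer photoreceptors and less RNA per photoreceptor cannot be told apart, and this holds for every value here.

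The smallest p belonged to rlbp1b (ENSDARG00000045808), the retinaldehyde carrier of Müller glia. It had 46.4, 64.7 and 77.5 TPM in elmo3+/+ and 41.2, 46.9 and 53.5 TPM in elmo3-/-. All elmo3-/- samples were below 5 of the 6 elmo3+/+ samples, and the ranges overlapped through elmo3+/+ replicate 3 alone. The log2 fold change was -0.36 (SE 0.09, 95% interval -0.56 to -0.16, edgeR adjusted p = 0.384). Without elmo3+/+ replicate 3 it was -0.43 with an adjusted p of 0.0183, the only alternative in which a member passed. The next in this direction were RPE65 ENSDARG00000094752 at -0.27 (SE 0.16, adjusted p = 0.601), with 3.51 to 6.39 TPM against 2.60 to 4.74 TPM, and rbp3 (ENSDARG00000059163) at -0.24 (SE 0.17, adjusted p = 0.66).

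In the other direction stood guca1d (ENSDARG00000044629), an activator of guanylyl cyclase, with 1.60, 2.25 and 2.75 TPM in elmo3+/+ and 1.53, 3.504 and 4.84 TPM in elmo3-/-. It was above all wild type samples in 3 knockout samples by CPM and below all of them in 1. Its log2 fold change was 0.73 (SE 0.30, edgeR adjusted p = 0.499), a value that rests on only 12 to 40 counts per sample. The cone inhibitory subunit PDE6H (ENSDARG00000056791) had 9.41, 10.7 and 15.8 TPM in elmo3+/+ and 10.51, 15.8 and 17.9 TPM in elmo3-/-. By CPM 4 of 6 knockout samples were above all wild type samples. By TPM only elmo3-/- replicates 2, 5 and 6 were, at 17.9, 16.7 and 17.5 TPM. The log2 fold change was 0.42 (SE 0.18, edgeR adjusted p = 0.501), and 0.16 to 0.42 under the alternatives that kept all samples.

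The rod arrestin saga (ENSDARG00000012610) moved in opposite directions on the 2 scales. Its log2 fold change from counts was 0.35 (SE 0.14, edgeR adjusted p = 0.499), with 64.7, 72.6 and 106 CPM in elmo3+/+ and 80.2, 94.8 and 141 CPM in elmo3-/-. Its TPM had a lowest, median and highest value of 46.5, 49.9 and 55.7 in elmo3+/+ and of 38.1, 41.6 and 56.9 in elmo3-/-, and the log2 fold change of limma on log2(TPM + 0.1) was -0.15. Counts per TPM, which follow the length of the transcripts that the reads were assigned to and are given relative to the median gene of the sample, did not overlap between genotypes. They were 0.895, 0.946 and 1.16 in elmo3+/+ and 1.18, 1.39 and 1.43 in elmo3-/-. saga was the only member of 54 without overlap in this measure, beside 39 of 21070 genes (0.185%). This measure was looked at after the values of saga were seen, and no test is given for it. The ratios of saga to the cone arrestins above are on the TPM scale and carry the same limit.

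**Figure D3:**
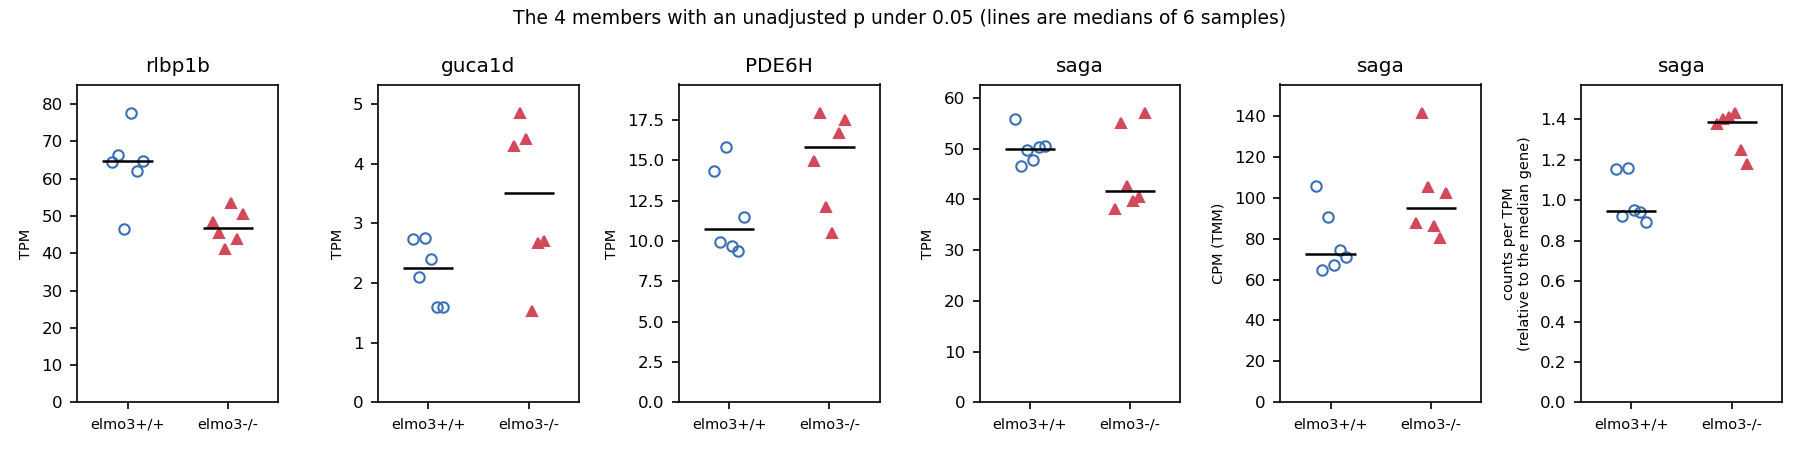
Values of rlbp1b, guca1d and PDE6H in TPM and of saga in TPM, in CPM and in counts per TPM, with 1 point per sample and a line at the median of each genotype (n = 6). For saga the elmo3-/- median is the lower one in TPM (41.6 against 49.9) and the higher one in CPM (94.8 against 72.6).

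By class the fitted changes were small and mostly above 0, while no class held a call. The log2 fold change was positive for 14 of 14 rod members (median 0.18), 12 of 15 cone members (median 0.08), 16 of 19 shared members (median 0.15) and 2 of 6 visual cycle members (median -0.17), beside 51.1% of all genes tested (median 0.00). Rod members ranged from 0.10 for GRK1 to 0.35 for saga. For the alpha subunits the intervals were wide, from -0.32 to 0.56 for gnat1 and from -0.28 to 0.44 for gnat2. The counts leaned on 1 library: without elmo3-/- replicate 2 positive changes were left in 11 rod members (median 0.08), 6 cone members (median -0.04) and 14 shared members (median 0.04), beside 50.2% of all genes. Members share the same samples, so these counts are no tally of independent changes. With 1 surrogate variable in the fit positive changes were left in 5 rod, 2 cone and 4 shared members, against 52.2% of all genes. This variable was not balanced between genotypes, at -0.46 to 0.27 in elmo3+/+ and -0.11 to 0.42 in elmo3-/-. It was highest in elmo3-/- replicate 2 (0.42). Values above 0 were also found in elmo3+/+ replicates 1 and 3 (0.27 in each) and in elmo3-/- replicates 1, 3 and 6 (0.08, 0.23 and 0.28). Whether the variable takes up part of the change of the members was not tested. On the TPM scale (limma, log2(TPM + 0.1)) positive changes were found in 12 rod, 7 cone and 1 of 6 visual cycle members, where 30.6% of all genes had one. The count of shared members on this scale is not given.

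**Figure D4:**
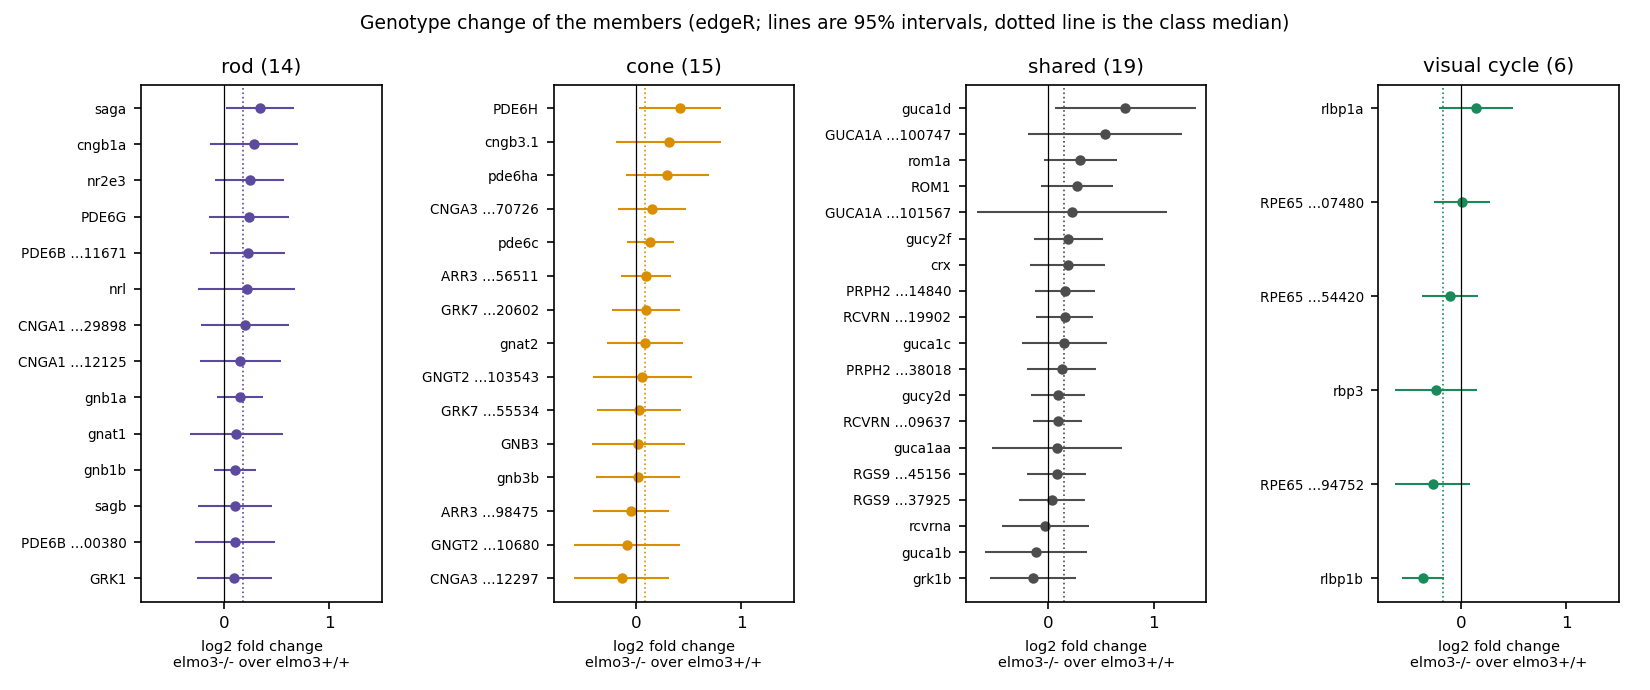
Log2 fold change (elmo3-/- over elmo3+/+, edgeR) of the 54 members by class, with points for the estimate, lines for the 95% interval and a dotted line for the class median. Only 4 intervals, those of saga, PDE6H, guca1d and rlbp1b, do not reach 0, and none of the 54 members has an adjusted p under 0.05.

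Levels varied widely between the samples of each genotype. To describe this, the log2 of TPM + 0.1 of each of the 48 rod, cone and shared members was taken relative to its mean over 12 samples. The median of these deviations was highest in elmo3-/- replicate 2 (0.41, with 47 of 48 members above 0), elmo3+/+ replicate 1 (0.27, 47 of 48) and elmo3-/- replicate 6 (0.25, 44 of 48). It was lowest in elmo3-/- replicate 1 (-0.27, 9 of 48) and elmo3-/- replicate 5 (-0.25, 5 of 48), followed by elmo3+/+ replicate 5 (-0.16, 5 of 48). The medians of rod and of cone members lay on the same side of 0 in 11 of 12 samples, with elmo3-/- replicate 4 as the exception (-0.05 for rod and 0.01 for cone members). The median of the visual cycle members shared the side of the rod, cone and shared members in 6 of 12.

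The knockout samples thus held both ends of the range. The SD of log2 CPM was larger in elmo3-/- for 46 of 54 members, beside 56.2% of all genes tested, and its median over members was 0.36 in elmo3-/- and 0.26 in elmo3+/+. This count rested on 1 library, since it was 26 of 54 without elmo3-/- replicate 2, beside 53.7% of all genes. That sample held the highest TPM of 24 of the 54 members, and elmo3-/- replicate 1 the lowest of 21.

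Single members did not all follow their sample. In elmo3-/- replicates 1 and 5, 7 of the 8 transducin members were lower than in each of the other 10 samples, as were 2.65% of all genes tested. For gnb1a the margin was narrow, at 191.82 TPM in elmo3-/- replicate 5 against 191.96 TPM in the lowest other sample. GNGT2 ENSDARG00000103543 had 908 and 899 TPM in replicates 1 and 5 and 1232 to 1918 TPM in the others. The opsin kinase grk1b had 17.3 and 19.9 TPM beside 28.2 to 40.0 TPM, and rcvrna had 78.9 and 76.4 TPM beside 118.6 to 170 TPM. In the same samples pde6ha had 951 and 875 TPM and PDE6H had 14.9 and 16.7 TPM, each above the mean of 12 samples. In elmo3-/- replicate 4 the order was turned for pde6ha, which had 497 TPM, its lowest value, while gnat2 was above its mean. These members and samples were picked after their values were seen.

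**Figure D5:**
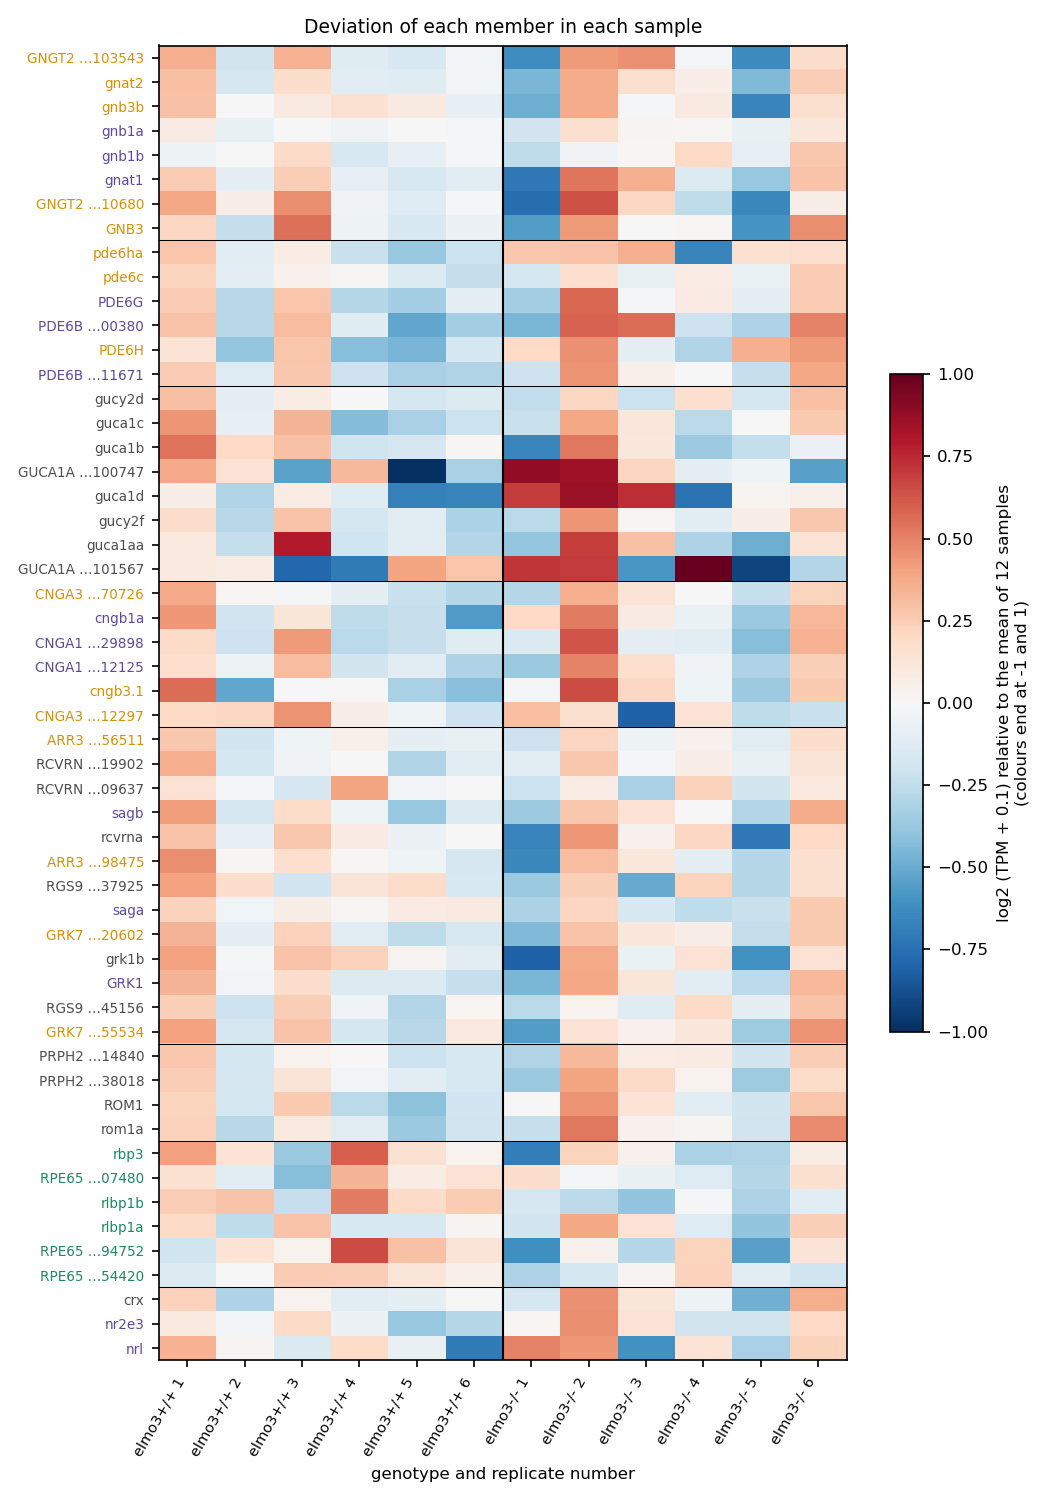
Deviation of each of the 54 members from its mean over 12 samples, as log2 of TPM + 0.1, with samples in columns, members in rows by step and red for higher values. elmo3-/- replicate 2 is red for 47 of 48 rod, cone and shared members, and elmo3-/- replicates 1 and 5 are blue for most, with pde6ha and PDE6H among the exceptions.

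Other genes of the retina were compared with the members through lists of symbols. Of the further genes of phototransduction and the visual cycle 50 of 53 were tested, and 0 passed in either direction (median log2 fold change 0.11). At an unadjusted p under 0.05, 5 were higher and 1 was lower (12%; among all genes tested 4.58% were higher and 4.95% lower). Among them GNB5 ENSDARG00000099685, the beta subunit that partners RGS9, had a log2 fold change of -0.24 (SE 0.08, edgeR adjusted p = 0.492). Among 16 photoreceptor transcription factors 0 passed, with rx1 (0.34, SE 0.13, adjusted p = 0.499) and NR1D1 (0.30, SE 0.12, adjusted p = 0.499) at the smallest p-values. Of 9 visual opsin identifiers tested 0 passed (median 0.19), and opn1lw1 was at 0.30 (SE 0.25, adjusted p = 0.703), a change that was 0.0089 without elmo3-/- replicate 2.

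Lists named for the other cells of the eye and for the pineal organ gave 0 calls as well. Whole larvae were sequenced, so that levels of these genes need not come from those organs alone. The median log2 fold change was 0.12 for 5 pineal genes, 0.19 for 9 bipolar cell genes, -0.12 for 4 Müller glia genes, -0.02 for 8 pigment cell genes and 0.16 for 9 lens genes. The members with the smallest p-values were asmt2 (0.28, SE 0.13, edgeR adjusted p = 0.52) and TPH2 (-0.14, SE 0.13, adjusted p = 0.74) for the pineal organ, NYX (0.25, SE 0.14, adjusted p = 0.571) for bipolar cells, and pmelb (-0.14, SE 0.11, adjusted p = 0.689) and TYRP1 ENSDARG00000056151 (0.08, SE 0.08, adjusted p = 0.762) for pigment cells. For the lens they were lim2.1 (0.21, SE 0.14, adjusted p = 0.619) and CRYBA4 (0.20, SE 0.13, adjusted p = 0.632). From the Müller glia list came SLC1A3 ENSDARG00000043148, a glutamate transporter (-0.26, SE 0.11, edgeR adjusted p = 0.511), and GFAP (0.11, SE 0.07, edgeR adjusted p = 0.6253). SLC1A3 also stands on ENSDARG00000104431 while the list names only slc1a3a, so that either identifier may be another copy. The symbols glula, glulb and rpe65c of this list gave no identifier in it. The summed level of the 4 genes of the Müller glia list was 149 to 189 TPM in elmo3+/+ and 144 to 175 TPM in elmo3-/-. This sum is not limited to the retina, and its part in the change of rlbp1b was not tested.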

How the data were processed

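The values analysed were those of 12 samples, 1 table of estimated counts and 1 table of TPM per sample as deposited by the authors. The deposited expected counts are not scaled between samples, and the deposited TPM take account of transcript length and of depth. The submitters' processing notes name Trim Galore 0.6.4, kallisto 0.4.6 and the build GRCz11. kallisto shares reads between similar transcripts by estimation, so that levels of close paralogues are uncertain. Identifiers were named through a table in which 29201 of 32520 (89.8%) had a symbol. No sequences or coordinates were used, and the planned search of promoter motifs was not run because no sequence table was at hand.

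Counts were rounded (63.0% were whole) and tested with edgeR 4.0.16 in R 4.3.3 (quasi-likelihood test, TMM scaling, filterByExpr, genotype as the only term), with Benjamini-Hochberg adjustment over 21127 genes and a threshold of 0.05. Log2 fold changes are elmo3-/- over elmo3+/+, standard errors come from the F statistic, and 95% intervals use 10 residual degrees of freedom. Ratios used log2 of TPM + 0.1. They were planned for 18 symbol pairs, and the symbols found gave 16 identifier pairs. A floor of 3 counts corresponds to 0.171 to 0.178 CPM and covers counting error only. Scripts were tested on simulated data.

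Levels are given for the 10 most abundant members and for those in rod and cone pairs. Changes are given for members past the threshold or at an unadjusted p under 0.05 and for the 3 with the smallest p in each direction, and for up to 2 genes of each other list, some of which are not reported here. Alternatives were DESeq2 1.42.0, scaling by upper quartile or by total count, a filter at a mean of 10 counts or none, a block for the replicate number, 1 surrogate variable (sva 3.50.0), limma 3.58.1 on TPM, other pseudocounts and leaving out each sample. The members, lists and tests were chosen with earlier results of these data known.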

Additional observations from a re-analysis of the deposited data

Results flagged for a closer look

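In 3 of 146 groups of 6 samples examined, a sample stood apart from the others by a gap above Dixon's 95% critical value. Chance flags about 1 in 20 such groups. pde6ha had 497 TPM in elmo3-/- replicate 4, where the other knockout samples had 875 to 1010 TPM. guca1aa had 2.27 TPM in elmo3+/+ replicate 3, and 1.02 to 1.37 TPM in the other wild type samples. The 13 mitochondrially encoded genes took 8.99% of the counts of elmo3+/+ replicate 1 and 6.59% to 7.19% in the other wild type samples. Of the rod, cone and shared members 47 of 48 were above their mean in that sample. In elmo3-/- the share was 7.28% to 10.3%, with a mean of 8.46% ± 1.24 (SD, n = 6) beside 7.21% ± 0.90 in elmo3+/+ (n = 6). It was 10.3% in elmo3-/- replicate 2, where 47 of 48 were above their mean, 9.10% in elmo3-/- replicate 1, where 9 of 48 were, and 9.11% in elmo3-/- replicate 4, where 23 of 48 were. Their part in the levels of the members was not tested.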

How the results depend on the processing

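The count of 0 members past the threshold was the same under all alternatives except those that left out a sample, where it ranged from 0 to 1 (rlbp1b without elmo3+/+ replicate 3). Over all genes 21 passed, 49 with DESeq2 and 17 to 22 when a sample was left out. The number of members at an unadjusted p under 0.05 ranged from 1 to 11, with 11 without elmo3+/+ replicate 1. The share of all genes at that threshold is not given for these fits, so the counts cannot be read as particular to the members. The log2 fold change of saga turned to -0.15 under limma on log2(TPM + 1) and on log2(TPM + 0.1). That of opn1lw1 was -0.12 with 1 surrogate variable and 0.0089 to 0.41 when a sample was left out. That of elmo3, 0.03, was -0.017 with total count scaling, -0.022 and -0.034 under limma on log2(TPM + 1) and log2(TPM + 0.1), and -0.066 to 0.14 when a sample was left out. The cause of these turns was not tested. With 1 surrogate variable the class medians changed sign. They went from 0.18 to -0.05 for rod, from 0.08 to -0.18 for cone and from 0.15 to -0.07 for shared members. When a sample was left out they ranged from 0.08 to 0.26 for rod, from -0.04 to 0.16 for cone and from 0.04 to 0.25 for shared members, each lowest without elmo3-/- replicate 2. All 16 ratios in elmo3+/+ passed with pseudocounts of 1 and 0.01 and among pairs with a mean TPM of at least 1. These alternatives could not change the result. A pseudocount added to both genes leaves the higher one the same, and all 6 samples lay on the same side for each pair. No pair fell below the TPM limit, as the lowest of their genes had a mean of 1.47 TPM. With 5 samples the sign-flip test cannot pass, so that no count is given without a sample. Ratios between genotypes gave 0 calls throughout. The counts by sign and by SD were recomputed under alternatives chosen after seeing the data.

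Same-numbered samples did not deviate together throughout. Their correlations over genes were -0.01, -0.29, 0.17, 0.39, 0.31 and 0.10, and 3 of 6 were closest to their own number. The mean correlation was 0.11 for same numbers and -0.02 for different numbers. The labels do not say what the numbers mark, and they were not taken as pairs. With the replicate number as a block 17 genes and 0 members passed. In that fit 5 members had an unadjusted p under 0.05, and the share of all genes is not given. As pairs 0 of 16 ratios differed. An exact sign-flip test over 6 pairs has a smallest p of 0.0312. After adjustment most of the 16 ratios would have to reach it together for any to pass, so no conclusion is drawn.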

Other observations

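Further lists were followed through the samples by the median deviation of their genes from the mean of 12 samples on the TPM scale. The photoreceptor transcription factors and the visual opsins lay on the same side of 0 as the rod, cone and shared members in 12 of 12 samples, as did bipolar cell genes. The further genes of phototransduction and the visual cycle shared that side in 9 of 12, and pineal genes in 8 of 12. In elmo3-/- replicate 4 the median of the members was close to 0 (-0.0027), so that its side there says little. Pigment cell genes, which hold melanin synthesis enzymes, lay on the opposite side in every sample, since 0 of 12 shared the side. Müller glia genes shared it in 2 of 12 and lens genes in 6 of 12. These counts describe samples that share libraries and depth, and no test was made of them.

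In elmo3-/- replicates 1 and 5, 16 of 54 members (29.6%) had their 2 lowest TPM values, among them gnat1, gnat2, grk1b and rcvrna. Of all genes tested 2.65% had both lowest values there. These samples were picked after their values were seen.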
